A study of Mus musculus with 69 samples.

Results

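The messages of the Toll-like receptors and of the proteins that serve them were followed in mouse macrophages after Cas9 editing of lysosomal and phagocyte genes. The 10 genes were chosen by symbol, from what they are known to do, out of 56980 genes in the deposited tables. They are the surface receptors Tlr2 and Tlr4 with the co-receptor Cd14, the endolysosomal receptors Tlr3, Tlr7, Tlr8, Tlr9 and Tlr13, the chaperone Unc93b1 and the adaptor Myd88. Of these, 9 passed the filter on low counts and were tested with 12008 genes in all, and Tlr9 did not pass. The 10 genes were chosen with earlier results of these data known.

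Bone marrow-derived macrophages are grown from mouse marrow with the growth factor M-CSF. Here wild-type cells, in biological replicates each pooled from 6 mice, received Cas9 ribonucleoprotein (the nuclease with its guide RNA) against Rosa26, the editing control, or against 1 of 6 genes. These genes were Atp6v1a, which encodes a subunit of the lysosomal proton pump, Npc1, which exports cholesterol from lysosomes, and Pik3c3, a lipid kinase needed for autophagy and for endosome maturation. The others were Ctsd, which encodes cathepsin D, a protease of lysosomes, Grn, which encodes progranulin, and Trem2, a receptor of phagocytes for lipids. Every group, Rosa26 included, was wild type and had received Cas9 ribonucleoprotein, and unedited cells were not analysed here. RNA was taken on day 4 or day 13 after editing. The sample labels call these times hours and the design text calls them days, and days are used. The 69 libraries form 14 groups of 1 target and 1 day, with n = 5 each and n = 4 for Npc1 on day 4.

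Library totals ran from 2194566 to 4688285 estimated counts with a median of 3404743. The targeted message was below the Rosa26 level in all 12 comparisons, with between 17.2% and 73.5% of it left. Of the Trem2 message 30.5% was left on day 4 and 56% on day 13, of Atp6v1a 56% and 73.5%, and of Pik3c3 59.4% and 68%. Npc1 (33% and 34.1%), Ctsd (19.6% and 21%) and Grn (20.8% and 17.2%) differed less between days. The part of these levels in the differences between days below was not tested. A label separates 47 libraries made with a Regular protocol from 22 made with a Low-input protocol. On day 4 the sole Low-input library was Trem2 replicate 1. On day 13 all 5 Trem2 libraries, 4 of Pik3c3, 3 each of Atp6v1a, Npc1 and Ctsd, 2 of Grn and 1 of Rosa26 (replicate 5) were Low-input. Levels below are CPM, counts scaled to the library total, and keep the protocol difference, whereas log2 fold changes ± SE come from a fit with a protocol term. For this reason library values are given within protocol. P-values come from quasi-likelihood tests in edgeR, adjusted over the 12008 genes after Benjamini and Hochberg. The word called means an adjusted p under 0.05. Nothing in the sources used here says more of how replicates were separated than the pools of mice, and p-values measure the spread between these libraries.

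Toll-like receptors recognise conserved molecules of microbes and of damaged cells and start inflammatory and interferon programmes. TLR2 and TLR4 sit on the surface of macrophages, where TLR2 detects bacterial lipoproteins and TLR4 detects lipopolysaccharide that CD14 hands to it. TLR3, TLR7, TLR8, TLR9 and TLR13 face the lumen of endolysosomes and read nucleic acids, after UNC93B1 has carried them from the endoplasmic reticulum and acid-dependent proteases have cut several of them. MYD88 is the adaptor of most of these receptors, with TLR3 as the exception.

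RefSeq promoter sequences (build GRCm38.p6, an older build than the GRCm39 of the deposited counts) were at hand for 6 of the 10 genes. The windows run from 250 bases before to 50 after the annotated start. Those of the 3 genes with a promoter and at least 1 call against Rosa26 cells are shown, so that their different composition can be read directly. Capitals mark matches on either strand to GGAAGT (the core of ETS factor sites) or TATAAA (a core promoter box bound by the TBP protein), and palindromes, runs of 10 or more bases equal to their own reverse complement. These letters were chosen with the sequences in view.
Tlr2, chr3:83841559-83841858, minus strand: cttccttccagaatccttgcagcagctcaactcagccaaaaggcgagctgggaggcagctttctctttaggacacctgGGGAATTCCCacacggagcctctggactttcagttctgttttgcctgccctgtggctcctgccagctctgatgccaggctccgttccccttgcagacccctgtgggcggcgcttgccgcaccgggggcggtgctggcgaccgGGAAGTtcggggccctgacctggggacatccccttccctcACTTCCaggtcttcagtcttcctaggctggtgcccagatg
Tlr8, chrX:167264280-167264579, minus strand: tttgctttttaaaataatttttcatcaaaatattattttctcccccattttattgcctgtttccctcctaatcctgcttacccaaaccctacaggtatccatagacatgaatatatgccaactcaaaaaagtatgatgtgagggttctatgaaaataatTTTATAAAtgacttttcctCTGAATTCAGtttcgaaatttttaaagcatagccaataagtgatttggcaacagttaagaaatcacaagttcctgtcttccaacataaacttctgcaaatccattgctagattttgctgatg
Myd88, chr9:119339969-119340268, minus strand: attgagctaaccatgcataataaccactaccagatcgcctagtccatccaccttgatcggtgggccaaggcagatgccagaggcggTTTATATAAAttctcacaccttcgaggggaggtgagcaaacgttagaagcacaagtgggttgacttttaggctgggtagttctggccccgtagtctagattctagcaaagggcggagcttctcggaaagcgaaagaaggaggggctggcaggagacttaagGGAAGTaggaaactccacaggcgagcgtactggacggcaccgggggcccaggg
The Tlr2 window held 1 palindrome, GGGAATTCCC, which begins 172 bases before the start (-172) and has the form of a binding site for NF-kB, the factor at the end of these pathways. It was in 13 of 32851 promoters of the same length (0.0396%). The window also held GGAAGT or its reverse complement at -30 and 11, as did 23.8% of all promoters at 1 position or more. The Tlr8 window held the palindrome CTGAATTCAG at -72 (0.0548% of promoters) and overlapping TATAAA matches on opposite strands at -91 and -89, and TATAAA was in 13.6% of promoters. The Myd88 window held GGAAGT at -3 and TATAAA matches at -164 and -160, which lie within the palindrome TTTATATAAA (0.0761% of promoters). No GGAAGT was in the Tlr8 window and no TATAAA in the Tlr2 window. Each palindrome share counts 1 exact string taken from the window itself, and the share of promoters with any palindrome of that length was not counted. The low shares therefore do not mark these palindromes as unusual. A match is a description of the letters and does not show that a factor binds there.

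Targeting Trem2 gave the largest rises of the set and targeting Atp6v1a or Grn the largest falls of Tlr7 and Unc93b1. On day 13 Trem2-targeted cells had 2.03 times the control level of Tlr2 and 2.01 times that of Tlr7 in the fit, and more Tlr4 and Unc93b1. Atp6v1a and Grn cells of the same day had less Tlr7, Tlr8, Unc93b1 and Cd14. Cd14 was lowest in Trem2 cells of day 4. Targeting Ctsd gave no call among the 9 tested genes on either day. All comparisons of a day share the same Rosa26 libraries, so their values are not independent of each other.

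**Figure D1:**
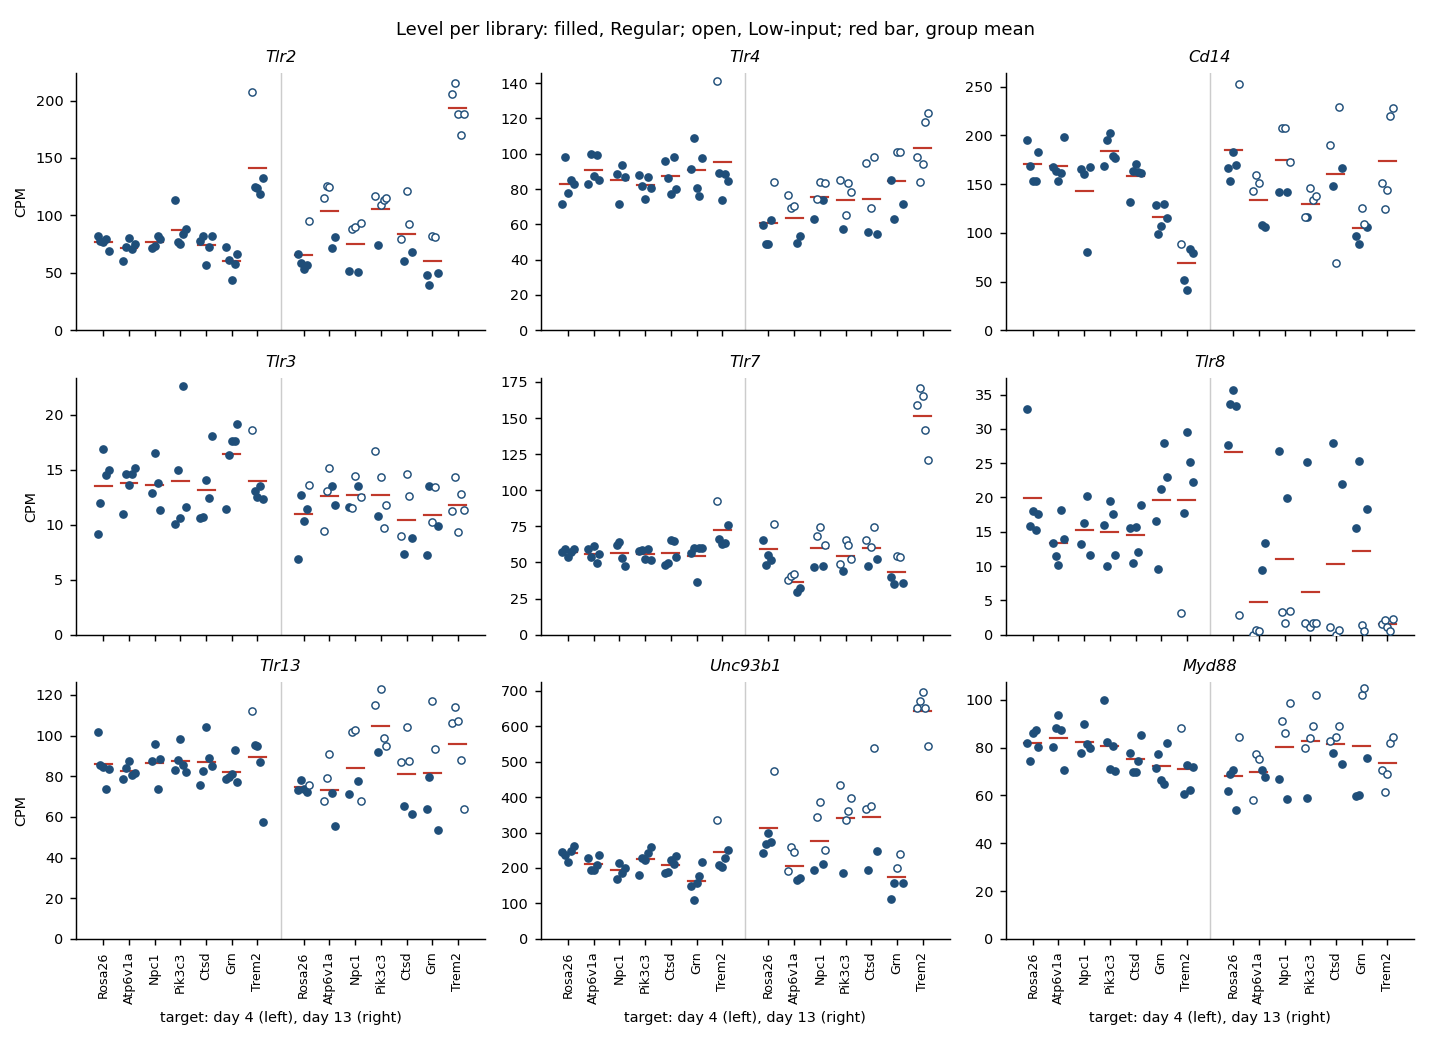
Level of each tested gene in every library, in CPM, with day 4 in the left and day 13 in the right section of each panel. Filled points are Regular and open points Low-input libraries, and red bars are group means; the Trem2 libraries of day 13 are the highest for Tlr7 (121 to 171 CPM), and the Tlr8 panel separates open from filled points.

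**Figure D2:**
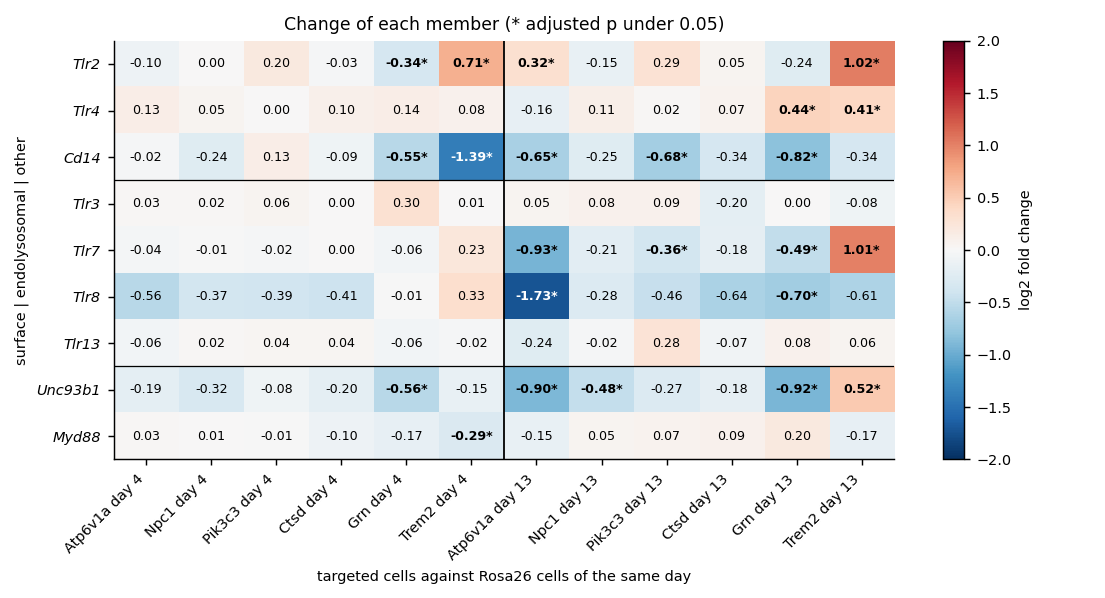
Log2 fold change of each tested gene (vertical axis, ordered as surface receptors, endolysosomal receptors, and chaperone and adaptor) in each targeted group against Rosa26 cells of the same day (horizontal axis). Red is higher, blue is lower, and an asterisk marks an adjusted p under 0.05; day 4 calls stand in the Grn and Trem2 columns and range from -1.39 (Cd14) to 0.71 (Tlr2).

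The first question was which receptors had moved by day 4. In Atp6v1a, Npc1, Pik3c3 and Ctsd cells 0 of the 9 tested genes were called by edgeR, where 0.00833%, 0.00833%, 0.175% and 0.125% of all tested genes were. At an unadjusted p under 0.05 there was 1 in Atp6v1a cells (Tlr8, -0.56 ± 0.23, 95% interval -1.02 to -0.11), 1 in Npc1 cells (Unc93b1, -0.32 ± 0.13, -0.57 to -0.07) and 0 in the other groups. DESeq2 also called 0 of the 9 in each of these 4 groups. In Grn cells 3 of 9 were called, all lower, against 8.04% of all tested genes. In Trem2 cells 3 of 9 were called, 1 higher and 2 lower, against 24.3%.

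Tlr2 (ENSMUSG00000027995.11), the lipoprotein receptor, went opposite ways in Grn and Trem2 cells of day 4. It stood at 81.8, 78.1, 76.9, 79.2 and 68.7 CPM in Rosa26 replicates 1 to 5. Trem2 replicate 1 (Low-input) had 207 CPM and the Regular replicates 2 to 5 had 125, 124, 119 and 133 CPM. Every Trem2 library lay above every Rosa26 library, and Tlr2 rose by 0.71 ± 0.10 (adjusted p = 6.57e-08). Grn cells had 72.5, 60.9, 44.2, 57.8 and 66.5 CPM, a range that overlapped that of Rosa26 in its highest library, and Tlr2 fell (-0.34 ± 0.10, adjusted p = 0.0285). The Grn call was lost without Rosa26 replicate 1, Grn replicate 2 or Grn replicate 3 (adjusted p up to 0.139). Compared directly, Tlr2 was lower in Grn than in Trem2 cells (-1.05 ± 0.10, adjusted p = 1.21e-12). In that direct comparison 4 of the 9 genes were called, against 15.2% of all.

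Cd14 (ENSMUSG00000051439.8), which passes lipopolysaccharide to TLR4, was lower in both. Rosa26 cells of day 4 had 195, 168, 153, 153 and 183 CPM. Grn cells had 128, 99.2, 107, 130 and 115 CPM and Trem2 cells had 88.9 (Low-input), 51.2, 40.9, 83.8 and 79.6 CPM. The 3 groups did not overlap, with Rosa26 on top and Trem2 at the bottom. The changes were -0.55 ± 0.17 in Grn cells (adjusted p = 0.0286) and -1.39 ± 0.18 in Trem2 cells (adjusted p = 2.12e-09), and Grn exceeded Trem2 cells by 0.84 ± 0.18 (adjusted p = 0.000269). The Grn value passed the threshold less clearly, since its adjusted p reached 0.0966 without Rosa26 replicate 1 or 5 or Grn replicate 2 or 3. The Trem2 value stayed called without any 1 of its 10 libraries. Tlr4 (ENSMUSG00000039005.14), the receptor CD14 serves, was at 0.14 in Grn and 0.08 in Trem2 cells and was not called.

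Unc93b1 (ENSMUSG00000036908.18), the chaperone of the endolysosomal receptors, fell in Grn cells on day 4. Its levels were 246, 238, 218, 248 and 262 CPM in Rosa26 cells and 148, 111, 158, 178 and 218 CPM in Grn cells. The ranges met at 218 CPM, and the other Grn libraries lay lower (-0.56 ± 0.12, adjusted p = 0.000948). Myd88 (ENSMUSG00000032508.9) fell in Trem2 cells, where the Regular libraries had 60.7, 72.9, 62.3 and 72.0 CPM against 81.8, 74.4, 86.2, 87.5 and 80.4 CPM in Rosa26 cells. The Low-input Trem2 library stood higher, at 88.3 CPM, and the fitted change was -0.29 ± 0.10 (adjusted p = 0.0199). That call was lost without Rosa26 replicate 3 or 4 or Trem2 replicate 2 or 4 (adjusted p up to 0.0791). No endolysosomal receptor was called on day 4, and the nearest was Tlr7 in Trem2 cells at 0.23 ± 0.10 (adjusted p = 0.0878).

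Messages used as markers of other cells differed between the same groups on day 4, and whether other cells made them was not tested. The summed level of 24 brain markers was 153 to 202 CPM in Rosa26, 242 to 376 in Grn and 140 to 581 CPM in Trem2 cells. Each of these 24 genes had counts in at least 1 library, and Mog, which marks oligodendrocytes, was at 0 in 37 of the 69. Mbp had the highest median of the 24 over all libraries, at 84.4 CPM, and Map2 the next, at 17.2 CPM. The sum of 6 erythroid markers was 1.01 to 4.23, 7.06 to 23.5 and 2.13 to 36.1 CPM in the same order, and that of 6 stromal markers 4.02 to 13.9, 14.7 to 26.1 and 11.3 to 35.4 CPM. The part of the erythroid and stromal markers in these results was not tested. The 9 macrophage markers, of which Cd14 is 1, summed to 13000 to 14700 CPM in Rosa26 and to 15800 to 21500 CPM in Trem2 cells, with no overlap. In Regular libraries Lyz2 had 8310 to 10200 CPM in Rosa26 and 10000 to 12800 CPM in Trem2 cells. The other 8 markers summed there to 4590 to 4930 CPM and to 5120 to 5750 CPM. The Low-input Trem2 library had 17000 CPM of Lyz2 and 4510 CPM of the other 8. Among the 9 markers Lyz2 (0.43 ± 0.13), Mertk (0.88 ± 0.14) and Mrc1 (1.24 ± 0.13) were higher in Trem2 cells of day 4. Besides Cd14, Fcgr1 (-1.01 ± 0.15), Adgre1 (-0.49 ± 0.10), Cd68 (-0.36 ± 0.08) and Itgam (-0.27 ± 0.09) were lower, and Csf1r was not called (-0.22 ± 0.15). The part of these markers in the fall of Cd14 was not tested. In a fit with the summed brain markers as covariate, Tlr2 (-0.39, adjusted p = 0.0258) and Unc93b1 (-0.66, adjusted p = 0.000679) kept their calls in Grn cells and Cd14 did not (-0.47, adjusted p = 0.11). All 3 Grn calls were lost without the protocol term, although each library of that comparison is Regular and that term acts there through the shared spread alone.

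By day 13 more of the 9 tested genes were called in each targeted group but Ctsd. The share of all tested genes called was also larger than on day 4, except in Trem2 cells. In Atp6v1a cells 5 of the 9 genes were called, 1 higher and 4 lower, against 24.4% of all tested genes. In Grn cells 5 of 9 were called, 1 higher and 4 lower, against 25.2%. In Trem2 cells 4 of 9 were called, all higher, against 22.2%. In Pik3c3 cells 2 of 9 were called, both lower, against 13.2%. In Npc1 cells 1 of 9 was called, lower, against 4.46%, and in Ctsd cells 0 of 9 were called, against 0.2%. In Ctsd cells 2 of the 9 had an unadjusted p under 0.05, Cd14 (-0.34, adjusted p = 0.518) and Tlr8 (-0.64, adjusted p = 0.428), and DESeq2 called 0. As bulk measurements these values cannot tell fewer cells of a kind from less RNA per cell.

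Tlr7 (ENSMUSG00000044583.14), a receptor for single-stranded RNA, fell in 3 groups of day 13 and rose in 1. Regular Rosa26 libraries of day 13 had 65.2, 48.4, 55.0 and 51.5 CPM and the Low-input one had 76.9 CPM. Atp6v1a cells had 37.7, 40.5 and 41.9 CPM in Low-input and 29.3 and 32.6 CPM in Regular libraries. All 5 lay below every Rosa26 library, and the change of Tlr7 was -0.93 ± 0.11 (adjusted p = 7.8e-11). Trem2 cells, all Low-input, had 159, 171, 165, 142 and 121 CPM. No library of another group exceeded 76.9 CPM except Trem2 replicate 1 of day 4 at 92.4 CPM, and Tlr7 rose by 1.01 ± 0.11 (adjusted p = 1.06e-11). Grn cells had 39.6, 34.9 and 35.6 CPM in Regular and 54.2 and 53.9 CPM in Low-input libraries, in each protocol below Rosa26 (-0.49 ± 0.10, adjusted p = 0.000199). Pik3c3 cells had 44.1 CPM in the Regular and 49.2, 65.3, 62.0 and 52.1 CPM in the Low-input libraries, also below Rosa26 within protocol. Their change was -0.36 ± 0.11 (adjusted p = 0.0131), and it was not called without Rosa26 replicate 1 or Pik3c3 replicate 1 (adjusted p up to 0.0662).

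Direct comparisons placed these groups apart. Tlr7 was lower in Atp6v1a than in Trem2 cells (-1.94 ± 0.10, adjusted p = 7.77e-26), lower in Grn than in Trem2 cells (-1.50 ± 0.10, adjusted p = 6.62e-20), lower in Atp6v1a than in Pik3c3 cells (-0.57 ± 0.10, adjusted p = 1.96e-05) and lower in Atp6v1a than in Grn cells (-0.44 ± 0.10, adjusted p = 0.00106). The numbers of the 9 genes called in these comparisons were 5, 5, 4 and 5, against 40.5%, 43.5%, 18.5% and 19.7% of all tested genes. Grn cells were also lower than Trem2 cells in Tlr2 (-1.26 ± 0.11, adjusted p = 4.81e-16) and Cd14 (-0.47 ± 0.18, adjusted p = 0.0257) and higher in Myd88 (0.38 ± 0.10, adjusted p = 0.00144). Over the 14 groups, with the protocol effect removed, Tlr7 ran from 4.92 ± 0.05 log2 CPM (SD, n = 5) in Atp6v1a cells of day 13 to 6.84 ± 0.19 in Trem2 cells of day 13. Grn cells of day 13 were next lowest at 5.36 ± 0.11 and Trem2 cells of day 4 next highest at 6.08 ± 0.11. The 6 groups from Rosa26 of day 4 (5.86 ± 0.07) to Atp6v1a of day 4 (5.82 ± 0.13) in that order differed from their neighbours by no more than 0.01, well within their spread.

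Unc93b1 fell in Atp6v1a, Grn and Npc1 cells of day 13 and rose in Trem2 cells. Rosa26 cells of day 13 had 242, 269, 300 and 273 CPM in Regular libraries and 475 CPM in the Low-input one. Atp6v1a cells had 167 and 171 CPM in Regular and 191, 258 and 246 CPM in Low-input libraries, and Grn cells had 113, 159 and 159 CPM in Regular and 201 and 239 CPM in Low-input libraries. Both groups lay below Rosa26 within each protocol, with changes of -0.90 ± 0.12 (adjusted p = 1.22e-08) and -0.92 ± 0.12 (adjusted p = 1.17e-08). Trem2 cells had 651, 672, 696, 651 and 545 CPM, all above the Low-input Rosa26 library, and rose by 0.52 ± 0.13 (adjusted p = 0.00155). Npc1 cells had 195 and 211 CPM in Regular and 343, 385 and 252 CPM in Low-input libraries, in both protocols below Rosa26. Their change of -0.48 ± 0.12 (adjusted p = 0.00938) was the sole call in Npc1 cells and was lost without Npc1 replicate 5 (adjusted p = 0.0635). Unc93b1 in Atp6v1a cells was lower than in Pik3c3 cells (-0.63 ± 0.12, adjusted p = 3.64e-05), and Grn cells were lower than Trem2 cells (-1.44 ± 0.13, adjusted p = 2.1e-15).

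Tlr8 (ENSMUSG00000040522.6), a relative of TLR7 encoded beside it on the X chromosome, depended on the library protocol more than any other gene of the set. Its level was 9.41 to 35.7 CPM with a median of 17.7 in the 47 Regular libraries and 0 to 3.51 CPM with a median of 1.47 in the 22 Low-input libraries. The protocols did not overlap in any library, and the fitted Low-input minus Regular difference was -3.88 ± 0.19 (adjusted p = 7.15e-29), at least as large in size in 37 of 12008 genes (0.308%). Of the 9 genes, 8 were called between protocols, 7 of them higher in Low-input libraries by 0.25 (Cd14) to 0.61 (Tlr2 and Unc93b1), against 67% of all genes. Values of Tlr8 from Regular libraries are therefore given first.

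In Regular libraries of day 13 Tlr8 stood at 27.6, 33.6, 35.7 and 33.4 CPM in Rosa26 cells. Atp6v1a cells had 9.41 and 13.3 CPM, and Grn cells had 15.5, 25.3 and 18.3 CPM, so neither group overlapped with Rosa26. The Low-input Atp6v1a libraries had 0, 0.679 and 0.534 CPM against 2.88 CPM in the Low-input Rosa26 library. The fit over all libraries gave -1.73 ± 0.30 for Atp6v1a (adjusted p = 4.58e-06) and -0.70 ± 0.25 for Grn cells (adjusted p = 0.031). The Grn call was lost without Rosa26 replicate 3 or 4 or Grn replicate 1 or 5 (adjusted p up to 0.0981) and in Regular libraries alone (-0.60, adjusted p = 0.0657), and the Atp6v1a call was kept in Regular libraries alone (-1.59). In Trem2 cells, where all libraries are Low-input, Tlr8 had 0.569 to 2.26 CPM and its value of -0.61 was not called.

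Tlr3 (ENSMUSG00000031639.13), a receptor for double-stranded RNA, and Tlr13 (ENSMUSG00000033777.5), a mouse receptor for bacterial ribosomal RNA, were not called against Rosa26 in any of the 12 comparisons. Tlr3 ranged from -0.20 in Ctsd cells of day 13 to 0.30 in Grn cells of day 4, and the latter had a 95% interval of -0.04 to 0.64. Tlr13 ranged from -0.24 in Atp6v1a to 0.28 in Pik3c3 cells of day 13. Compared directly, those 2 groups differed (-0.52 ± 0.12, adjusted p = 0.000787), with 72.0 and 55.6 CPM in Regular Atp6v1a libraries against 91.7 CPM in the Regular Pik3c3 library, and 68.0, 79.4 and 91.0 CPM against 115, 123, 98.6 and 94.8 CPM in Low-input libraries. Within each protocol the Atp6v1a libraries were the lower ones.

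Tlr9 (ENSMUSG00000045322.11), the receptor for unmethylated CpG DNA, was at 0 counts in 48 of the 69 libraries. The other 21 held 32 counts in total, at most 4 counts or 1.3 CPM in a library. A count of 0 allows up to 3 counts, which is 0.64 to 1.37 CPM depending on the library total and covers counting error only. No difference in Tlr9 was detectable at this depth. Plasmacytoid dendritic cells are known for Tlr9 and Tlr7, and of 7 of their markers Siglech, Ccr9 and Klk1 reached at most 1.44, 1.47 and 0.292 CPM in any library. Cox6a2 and Pacsin1, also among the 7, reached 7.61 and 7.91 CPM, with medians of 1.83 and 1.3 CPM, and were at 0 in 0 and 3 libraries. The summed 7 markers ran from 484 to 586 CPM in Rosa26, 343 to 414 CPM in Atp6v1a and 549 to 648 CPM in Trem2 cells of day 13, and Bst2 and Tcf4, which macrophages also express, reached 464 and 452 CPM.

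Among the surface genes Tlr2 was above the Rosa26 level of day 13 in Trem2 cells and, to a lesser degree, in Atp6v1a cells. Rosa26 cells had 66.0, 58.5, 53.3 and 56.5 CPM in Regular and 95.2 CPM in Low-input libraries. Trem2 cells had 206, 215, 188, 170 and 188 CPM, above every other library of day 13, and rose by 1.02 ± 0.11 (adjusted p = 2.74e-11). Atp6v1a cells had 71.4 and 81.1 CPM in Regular and 115, 126 and 125 CPM in Low-input libraries, in each protocol above Rosa26. Their change was 0.32 ± 0.11 (adjusted p = 0.0178), with an adjusted p of up to 0.0592 without Rosa26 replicate 5 or Atp6v1a replicate 2. Tlr2 was lower in Atp6v1a than in Trem2 cells (-0.70 ± 0.10, adjusted p = 2.26e-08) and higher in Pik3c3 than in Npc1 cells (0.44 ± 0.10, adjusted p = 0.00102), the sole call of the latter comparison among the 9 genes, against 13.4% of all.

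Tlr4, the lipopolysaccharide receptor, was higher in Grn and Trem2 cells of day 13. Rosa26 cells had 59.6, 48.7, 48.7 and 62.4 CPM in Regular libraries and 83.9 CPM in the Low-input one. Grn cells had 85.0, 63.0 and 71.8 CPM in Regular and 101 and 101 CPM in Low-input libraries, in each protocol above Rosa26 (0.44 ± 0.12, adjusted p = 0.00286). Trem2 cells had 98.4, 83.9, 94.3, 118 and 123 CPM, with the lowest level with that of the Low-input Rosa26 library (0.41 ± 0.13, adjusted p = 0.013). The Trem2 call was lost without Rosa26 replicate 2 or Trem2 replicate 5 (adjusted p up to 0.0659). Tlr4 was lower in Atp6v1a cells than in Grn cells (-0.60 ± 0.11, adjusted p = 3.95e-05) and Trem2 cells (-0.57 ± 0.11, adjusted p = 3.71e-05).

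Cd14 fell in 3 groups of day 13. Rosa26 cells had 166, 153, 183 and 169 CPM in Regular and 253 CPM in Low-input libraries. Grn cells had 96.9, 88.1 and 106 CPM in Regular and 125 and 109 CPM in Low-input libraries (-0.82 ± 0.17, adjusted p = 0.000149). Pik3c3 cells had 116 CPM in the Regular and 116, 146, 134 and 138 CPM in the Low-input libraries (-0.68 ± 0.18, adjusted p = 0.00405). Atp6v1a cells had 108 and 106 CPM in Regular and 143, 159 and 151 CPM in Low-input libraries (-0.65 ± 0.17, adjusted p = 0.00242). In each of these groups every library lay below Rosa26 of its protocol. In Trem2 cells of day 13, where the libraries spread from 124 to 228 CPM, Cd14 was at -0.34 ± 0.18 and was not called. Without any 1 library the 3 called changes passed the threshold each time, with the largest adjusted p at 0.0271.

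The contrast of surface and endolysosomal receptors took a different form in each group. In Atp6v1a cells of day 13 the median log2 fold change was -0.16 over the 3 surface genes and -0.58 over the 4 tested endolysosomal receptors, against 0.02 over all genes. In Trem2 cells of day 13 it was 0.41 and -0.01, against 0.03. In Grn cells of day 13 both medians were -0.24, against -0.01. These classes hold members that moved in opposite directions, such as Tlr2 and Cd14 in Atp6v1a cells and Tlr4 and Cd14 in Grn cells, and the difference between classes was not tested.

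**Figure D3:**
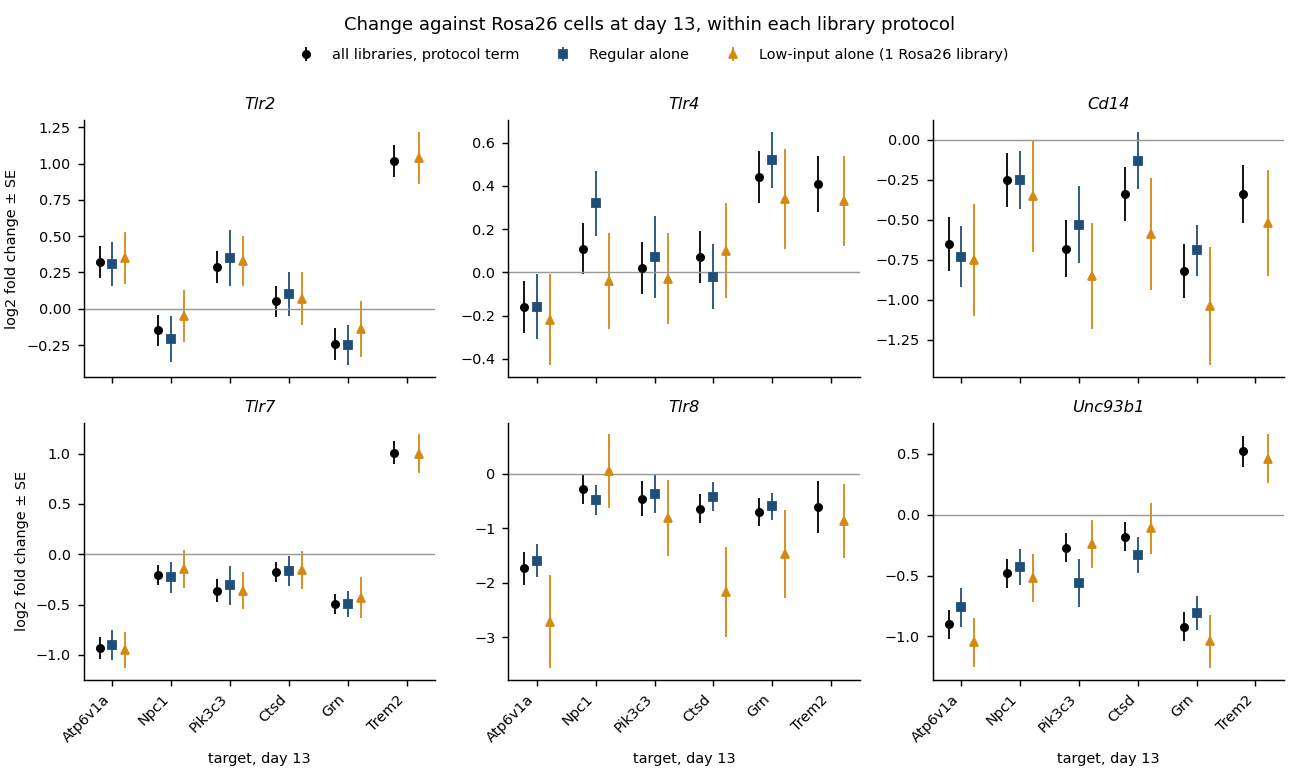
Log2 fold change ± SE against Rosa26 cells at day 13 for 6 genes, from all libraries with a protocol term (black), from Regular libraries alone (blue) and from Low-input libraries alone (orange, with 1 Rosa26 library). In Atp6v1a cells Tlr7 keeps its direction and size in each fit (-0.93, -0.90 and -0.95), and Unc93b1 keeps its direction with a size that varies more. Trem2 has no Regular value.

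Because protocol and target are partly joined on day 13, the changes were refitted within each protocol. In Atp6v1a cells Tlr7 was -0.90 in Regular and -0.95 in Low-input libraries, Unc93b1 was -0.76 and -1.05, and Tlr8 was -1.59 and -2.71. Each was called in Regular libraries. The Tlr8 value of -2.71 rests on few counts, as all 22 Low-input libraries together held 126 counts of Tlr8. Cd14 was called in Regular (-0.73, adjusted p = 0.00405) but not in Low-input libraries (-0.75, adjusted p = 0.211), and Tlr2 was called in neither (0.31, adjusted p = 0.171, and 0.35, adjusted p = 0.265). In Grn cells Unc93b1 was -0.81 and -1.04, each called, and Cd14 (-0.69), Tlr7 (-0.49) and Tlr4 (0.52) were called in Regular but not in Low-input libraries. In Trem2 cells, with 5 Low-input libraries against 1 Low-input Rosa26 library, Tlr2 was 1.04 (adjusted p = 0.000277) and Tlr7 was 1.00 (adjusted p = 0.000821). Tlr4 (0.33, adjusted p = 0.393) and Unc93b1 (0.46, adjusted p = 0.193) were not called there. Neither call in Pik3c3 cells nor that in Npc1 cells passed within a protocol, where groups shrink to 1 to 4 libraries, although each kept its direction. With the lone Rosa26 library of the Low-input protocol, target and library cannot be told apart for the calls that rest on it.

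Marker levels also differed between groups on day 13. Brain markers summed to 154 to 530 CPM in Rosa26, 114 to 150 CPM in Grn, 113 to 316 CPM in Atp6v1a, 119 to 286 CPM in Pik3c3, 148 to 359 CPM in Npc1 and 140 to 215 CPM in Trem2 cells. The 6 stromal markers summed to 22 to 285 CPM in Rosa26 and to at most 62.9 CPM in Trem2, 19.4 CPM in Atp6v1a and 7.94 CPM in Grn cells, with 1.14 to 50 CPM in Pik3c3 and 4.4 to 21.8 CPM in Npc1 cells, the latter wholly below Rosa26, and with Lum at 0 in 53 of 69 libraries. In the fit with brain markers as covariate, Tlr4 (0.24, adjusted p = 0.276) and Tlr8 (-0.52, adjusted p = 0.465) were no longer called in Grn cells, whereas Unc93b1 (-0.79), Tlr7 (-0.50) and Cd14 (-0.92) were. The 8 neutrophil markers summed to 1 to 5.01 CPM in Rosa26 cells and lay above that range in Atp6v1a (7.51 to 16 CPM) and Pik3c3 cells (8.29 to 12.9 CPM). They overlapped with it in Grn (4.43 to 8.88 CPM), Npc1 (2.42 to 6.15 CPM) and Trem2 cells (0.357 to 2.54 CPM). Of these 8, S100a8 had the highest median over the libraries of both days (9.05 CPM). Ly6g, Elane and Mpo were at 0 in 64, 65 and 57 of the 69 libraries. The erythroid markers summed to 3.66 to 20 CPM in Rosa26 cells and lay below that range in Grn (0 to 2.15 CPM) and Trem2 cells (0.961 to 3.39 CPM), while Atp6v1a cells had 1.36 to 9.07, Pik3c3 cells 1.43 to 4.14 and Npc1 cells 1.02 to 10.7 CPM. The part of the stromal, neutrophil and erythroid markers in these results was not tested.

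The 9 macrophage markers, of which Cd14 is 1, summed to 11700 to 15800 CPM in Rosa26 and 24100 to 25900 CPM in Trem2 cells of day 13. Lyz2, which encodes lysozyme, made up most of that sum. In Low-input libraries Lyz2 had 10200 CPM in Rosa26 and 16900 to 19400 CPM in Trem2 cells, and the other 8 markers summed to 5650 and to 6490 to 7320 CPM. In the fit Lyz2 (0.81 ± 0.14), Mrc1 (1.17 ± 0.14), Mertk (1.27 ± 0.15) and Cd68 (0.24 ± 0.09) were higher in Trem2 cells, Fcgr1 was lower (-0.73 ± 0.17), and Adgre1 (0.11 ± 0.11), Csf1r (0.36 ± 0.16), Itgam (-0.07 ± 0.10) and Cd14 were not called. Lymphocyte, conventional dendritic cell and mast cell or basophil markers summed to at most 10.1, 5.4 and 1.01 CPM in any library.

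**Figure D4:**
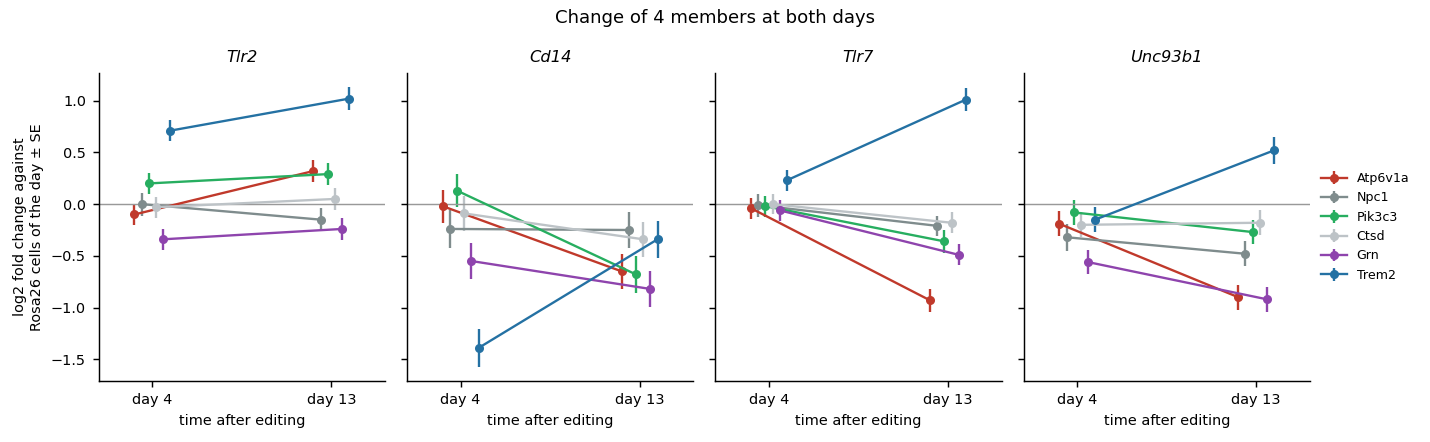
Log2 fold change ± SE of Tlr2, Cd14, Tlr7 and Unc93b1 against Rosa26 cells of the same day, at day 4 and day 13, with a line for each target. Cd14 in Trem2 cells moves from -1.39 to -0.34, and Tlr7 separates into a Trem2 value of 1.01 and an Atp6v1a value of -0.93 at day 13.

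The change between days was tested as a difference of the effects. In Atp6v1a cells 4 of the 9 genes had different effects on the 2 days, against 11.4% of all genes, with Tlr7 at -0.89 ± 0.15 (day 13 minus day 4, adjusted p = 4.28e-06), Unc93b1 at -0.71 ± 0.17 (adjusted p = 0.00196), Tlr8 at -1.17 ± 0.38 (adjusted p = 0.0321) and Tlr2 at 0.42 ± 0.15 (adjusted p = 0.0482). Tlr7 alone of the 4 was also called in Regular libraries (-0.87, adjusted p = 0.00105) and without the protocol term (-0.75, adjusted p = 0.00357). Unc93b1 was called in neither fit (-0.56, adjusted p = 0.0548, and -0.48, adjusted p = 0.278), although it kept its call without any 1 library. Tlr8 was not called without Rosa26 replicate 2, 3 or 4 or Atp6v1a replicate 4 of day 4 or Rosa26 replicate 3 or Atp6v1a replicate 4 of day 13 (adjusted p up to 0.102). Tlr2 kept its call in 5 of 20 fits that each left out 1 library (adjusted p up to 0.105). In Trem2 cells 3 of 9 differed, against 7.95% of all, with Cd14 at 1.04 ± 0.24 (adjusted p = 0.00341), Tlr7 at 0.78 ± 0.14 (adjusted p = 0.000138) and Unc93b1 at 0.67 ± 0.17 (adjusted p = 0.00744). The rise of Tlr2 in Trem2 cells was not shown to differ between days (0.32, 95% interval 0.03 to 0.60, adjusted p = 0.183).

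In Grn cells 1 of 9 differed between days, against 10.3% of all. It was Tlr7 (-0.43 ± 0.14, adjusted p = 0.0404), which kept its call in 5 of 20 fits that each left out 1 library (adjusted p up to 0.106). In Pik3c3 cells 1 of 9 differed, against 6.19%. It was Cd14 (-0.80 ± 0.24, adjusted p = 0.0299), which was not called without Rosa26 replicate 3 or 4 or Pik3c3 replicate 3 of day 4, or Rosa26 replicate 5 or Pik3c3 replicate 1 of day 13 (adjusted p up to 0.0721). In Npc1 and Ctsd cells 0 of 9 did, against 0.2% and 0.00833%, and 0 had an unadjusted p under 0.05. DESeq2 also called 0 of the 9 there.

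Control cells changed with time as well. Between Rosa26 cells of day 13 and day 4, 4 of the 9 genes were called, against 30.6% of all genes. Tlr4 stood at 71.6, 98.2, 77.7, 85.3 and 82.7 CPM on day 4 and was lower in all 4 Regular libraries of day 13 (-0.54 ± 0.12, adjusted p = 0.000177). Tlr2 (-0.36 ± 0.10, adjusted p = 0.00616) and Myd88 (-0.31 ± 0.10, adjusted p = 0.00921) were lower on day 13 and Tlr8 was higher (0.78 ± 0.22, adjusted p = 0.00502). The Regular libraries of day 13 lay below all of day 4 for Tlr2 and Myd88, while for Tlr8 Rosa26 replicate 1 of day 4, at 32.9 CPM, fell within the day 13 range. In the fit with brain markers as covariate, Tlr4 (-0.33, adjusted p = 0.0755) and Tlr8 (0.64, adjusted p = 0.171) were not called. Between the same groups the summed neutrophil markers went from 17.9 to 32.9 CPM on day 4 to 1 to 5.01 CPM on day 13, and the stromal markers from 4.02 to 13.9 CPM to 22 to 285 CPM, with no overlap in either. The part of these markers in the changes of Tlr2, Tlr4, Myd88 and Tlr8 was not tested. Since each later comparison is made against these cells, the day 13 rise of Tlr4 in Grn and Trem2 cells was a rise over a control level that was itself lower than on day 4. The same holds for Tlr2 in Trem2 and Atp6v1a cells of day 13. With the protocol effect removed, Tlr2 in Rosa26 cells was 6.28 ± 0.09 log2 CPM (SD) on day 4 and 5.92 ± 0.14 on day 13. Trem2 cells had 6.98 ± 0.06 and 6.94 ± 0.14 on the same days, and Atp6v1a cells 6.17 ± 0.15 and 6.24 ± 0.07.

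The other genes of the pathway were read from lists by role, and their counts stand beside the share of all tested genes called in the same comparison. The lists were chosen with earlier results of these data known, so the counts are a description and cannot test for enrichment. Of 10 co-receptors and further Toll-like receptors, 6 were tested. In Atp6v1a cells of day 13, 4 of the 6 were lower and 0 higher, against 24.4% of all genes in either direction, with Ly86, the partner of the receptor CD180, at -1.27 ± 0.20 and Tlr1, which pairs with TLR2, at -1.02 ± 0.17. Cd36, a scavenger receptor that works with TLR2, was lower in Atp6v1a (-0.61 ± 0.09), Pik3c3 (-0.62 ± 0.09) and Trem2 cells (-1.16 ± 0.10) of day 13 and in Trem2 cells of day 4 (-0.76 ± 0.09). In Trem2 cells of day 13, 2 of the 6 were lower and 0 higher, against 22.2% of all, the other being Cd180 (-0.51 ± 0.13). Ly86 was also lower in Grn (-1.13 ± 0.19) and Pik3c3 cells (-0.83 ± 0.21) of day 13, and between protocols it differed by -2.19 ± 0.12.

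The genes for folding, transport and ligand supply of the endolysosomal receptors, 17 of them tested, were called in both directions, and in Atp6v1a, Grn and Pik3c3 cells about as often as all genes. In Atp6v1a cells of day 13, 2 were higher and 3 lower (24.4% of all genes called), in Grn cells 3 and 1 (25.2%), in Pik3c3 cells 2 and 1 (13.2%), and in Trem2 cells 3 and 3 (22.2%). Pld4, an exonuclease that trims nucleic acids in endolysosomes, was lower in Atp6v1a (-0.70 ± 0.10) and Grn cells (-0.44 ± 0.10) and higher in Trem2 cells (0.66 ± 0.11). Its relative Pld3 was higher in Atp6v1a (0.55 ± 0.13), Grn (0.64 ± 0.13) and Pik3c3 cells (1.02 ± 0.14). Arl8b, a GTPase that positions lysosomes, was higher in the same 3 groups (0.58 ± 0.08, 0.58 ± 0.07 and 0.56 ± 0.08). Slc15a3, a lysosomal peptide transporter, was lower in Trem2 cells on day 4 (-1.50 ± 0.19) and day 13 (-0.96 ± 0.17).

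All 6 proteases that process endolysosomal receptors were tested. In Grn cells of day 13, 4 of the 6 were higher and 0 lower, against 25.2% of all genes, among them cathepsins Ctsl (0.67 ± 0.09), Ctsb (0.40 ± 0.06) and Ctsk (1.26 ± 0.25). In Trem2 cells of day 13, 1 was higher and 3 lower, against 22.2%, with Ctss at -1.25 ± 0.09, Ctsk at -1.30 ± 0.34 and Ctsl at -0.62 ± 0.09, and on day 4 the same 3 genes were the lower ones. In Atp6v1a cells of day 13, 3 were lower, against 24.4%, Ctsl (-0.66 ± 0.09), the asparagine endopeptidase Lgmn (-0.45 ± 0.07) and Ctsb (-0.21 ± 0.06). In Grn cells of day 13 the list median was 0.35 and in Atp6v1a cells -0.31, against all-gene medians of -0.01 and 0.02.

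Of 27 tested adaptors and proximal signalling genes, 3 were higher and 7 lower in Atp6v1a cells of day 13 (24.4% of all genes called), 0 and 6 in Grn cells (25.2%), 5 and 3 in Trem2 cells (22.2%) and 3 and 1 in Pik3c3 cells (13.2%). In Grn and Pik3c3 cells the counts are near the share of all genes. On day 4, 5 were lower in Grn cells (8.04%), and 1 was higher and 8 lower in Trem2 cells (24.3%). Pik3ap1, an adaptor that links these receptors to PI3-kinase, was lower in Atp6v1a cells of day 13 (-0.86 ± 0.11) and in Trem2 cells of day 4 (-0.90 ± 0.11) and day 13 (-0.42 ± 0.12). Irf5, a transcription factor activated downstream of MYD88, was lower on day 4 in Grn (-0.41 ± 0.09) and Trem2 cells (-0.66 ± 0.09). Ticam2, an adaptor of TLR4, was higher in Atp6v1a cells of day 13 (0.72 ± 0.14), and Irf7, which drives type I interferon genes, was higher in Pik3c3 cells (1.25 ± 0.29).

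Of 13 tested inhibitors of this signalling, 1 was higher and 7 lower in Grn cells of day 13 (25.2% of all genes called), 2 and 4 in Atp6v1a cells (24.4%), 2 and 3 in Trem2 cells (22.2%) and 3 and 3 in Pik3c3 cells (13.2%). Dusp1, a phosphatase of stress kinases, was lower in Trem2 (-1.43 ± 0.17), Pik3c3 (-1.15 ± 0.16), Grn (-0.89 ± 0.15) and Atp6v1a cells (-0.74 ± 0.15) of day 13. Peli1, a ubiquitin ligase, was higher in Pik3c3 cells (1.19 ± 0.11).

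Of 14 tested NF-kB-dependent response genes, 7 were higher and 2 lower in Pik3c3 cells of day 13, against 13.2% of all genes, with the chemokine Ccl5 at 5.02 ± 0.47 and Acod1, which makes itaconate, at 4.67 ± 0.36. This list too was chosen with earlier results of these data known, so its count is a description. In the other groups of that day the counts were 3 higher and 4 lower in Atp6v1a (24.4% of all genes called), 3 and 1 in Grn (25.2%), 1 and 4 in Trem2 (22.2%), 1 and 1 in Npc1 (4.46%) and 0 in Ctsd cells (0.2%). The Grn count is near the share of all genes. On day 4, 2 of the 14 were higher in Pik3c3 cells, Acod1 (1.63 ± 0.32) and Saa3, an acute-phase protein (1.5 ± 0.32), where 0.175% of all genes were called. Grn cells of day 4 had 3 higher and 1 lower (8.04%) and Trem2 cells 1 higher and 3 lower (24.3%). Nfkbiz, an NF-kB cofactor, was lower in Atp6v1a (-1.24 ± 0.17), Grn (-1.25 ± 0.16) and Npc1 cells (-0.77 ± 0.16) of day 13.

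Some genes had group means much like those of the members over the 14 groups, with the protocol effect removed. For Tlr7 the highest Pearson correlations were with Dse (0.967), Stard8 (0.957) and Gpr146 (0.955), and for Unc93b1 with Gdi2 (0.972), Ifngr1 (0.966) and Ptprj (0.958). For Tlr2 they were with Il21r (0.932), Prss16 (0.917) and Cbfa2t3 (0.915), and for Cd14 with Ikbkg (0.938), Cic (0.933) and Zfp281 (0.914). For Tlr8 the highest was Washc4 at 0.924 and the next Man2a1 at 0.842. These are the best of 12008 genes over 14 means, from which a protocol effect fitted per gene over all groups was removed. They are given as a description.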

How the data were processed

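The libraries are 3' tag libraries with unique molecular identifiers (QuantSeq), sequenced as single-end reads, per the labels' protocols. The authors deposited a table of estimated counts per gene. The submitters' processing notes name Salmon, with no version given in the sources at hand, and the build GRCm39. A deposited table of log2 CPM by the authors served as a check and lay within 0.13 of the values recomputed from the counts for the 10 genes (median difference 0.022). Gene symbols came from the deposited gene table. RNA integrity numbers in the labels ran from 8.6 to 10, with 4 missing. The sources used here do not say how Regular and Low-input libraries were made.

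Estimated counts, of which 31.2% of the values above 0 were not whole, were rounded. R 4.3.3, edgeR 4.0.16 and limma 3.58.1 were used. All 69 libraries entered 1 quasi-likelihood fit with TMM scaling, a mean per group and a protocol term, after filterByExpr by group had kept 12008 of 56980 genes. Two-sided tests were adjusted by Benjamini-Hochberg over those genes, and the SE was taken as the size of the log2 change over the root of its F statistic. On simulated data the fit recovered most of the changes put in, and in each of the 3 comparisons simulated the share of false calls was above the threshold of 0.05. Values of CPM are counts scaled to the library total, and log2 CPM with the protocol effect removed used a prior count of 0.5. Intervals are 95%. Libraries of the same group differed by more than sampling noise in every pair (chi-square over its degrees of freedom at least 1.701).

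All 10 genes were read in every comparison. Calls in the comparisons between targets are given as counts, and not every gene called there is named. Of each pathway list up to 3 called genes of smallest adjusted p were kept per comparison, from which examples were taken. The members, lists and comparisons were chosen with earlier results of these data known. The alternatives were RLE scaling, no filter, no protocol term, DESeq2 1.42.0, the replicate block, 1 protocol alone, a brain marker covariate and leaving out each library. Promoters are RefSeq sequences of GRCm38.p6, and coordinates are given in that build alone.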

Additional observations from a re-analysis of the deposited data

Results flagged for a closer look

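In 10 of 126 sets of a gene and a group, 1 library stood apart from the rest of its group by Dixon's test on log2 CPM with the protocol effect removed; chance gives about 1 in 20. No cause of these was tested. Cd14 was 6.4 in Npc1 replicate 4 of day 4 (80.7 CPM), with 7.34 to 7.40 in the others, and 5.81 in Ctsd replicate 3 of day 13 (68.6 CPM), with 7.25 to 7.52 in the others. Tlr7 was 5.22 in Grn replicate 3 of day 4, with 5.89 to 5.93 in the others, the same library that was lowest of its group for Tlr2. Tlr8 was 5.07 in Rosa26 replicate 1 of day 4 (others 3.96 to 4.18) and 1.4 in Atp6v1a replicate 1 of day 13, which held 0 counts (others 3.22 to 3.78).

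Tlr4 was 5.93 in Atp6v1a replicate 1 of day 13 (others 5.60 to 5.69). Tlr13 was 5.86 in Trem2 replicate 5 of day 4, 5.86 in Rosa26 replicate 5 of day 13 and 5.77 in Npc1 replicate 5 of day 13, each below the rest of its group. Unc93b1 was 8.46 in Trem2 replicate 5 of day 13 (others 8.69 to 8.77).

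The effect of a target differed between days in 9 cases by edgeR's quasi-likelihood test, over 9 tested genes in each of 6 targets. In Atp6v1a cells Tlr2 differed by 0.42, Tlr7 by -0.89, Tlr8 by -1.17 and Unc93b1 by -0.71 (day 13 minus day 4, log2). Cd14 differed by -0.80 in Pik3c3 cells and Tlr7 by -0.43 in Grn cells. In Trem2 cells Cd14 differed by 1.04, Tlr7 by 0.78 and Unc93b1 by 0.67. Of all tested genes 11.4% were called in Atp6v1a, 6.19% in Pik3c3, 10.3% in Grn and 7.95% in Trem2 cells, and the Grn count of 1 of 9 is near that share. Tlr2 in Atp6v1a cells and Tlr7 in Grn cells kept their calls in 5 of 20 fits that each left out 1 library. Every one of the 9 flagged tests rests on the shared Rosa26 libraries of both days.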

How the results depend on the processing

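Of the counts of called genes, 58 moved by over 1.5 times. Fits of 1 protocol alone hold fewer libraries, and otherwise the cause was not tested. Counts are out of the 9 tested genes. The share of all genes called in each of these fits is not given here. A moved count therefore does not show that these genes moved more than genes in general. Without the protocol term, 0 were called in Grn cells of day 4 (3 with it), 0 in Npc1 (1), and 4 in Pik3c3 cells of day 13 (2). For the difference between days that fit called 1 in Atp6v1a (4), 0 in Pik3c3 (1), 0 in Grn (1) and 1 in Rosa26 cells (4), and it called 3 between Atp6v1a and Grn cells (5). In Regular libraries alone the counts were 0 in Npc1 and 0 in Pik3c3 cells of day 13. For the difference between days they were 2 in Atp6v1a (Tlr7, and Cd14, which all libraries did not call), 0 in Pik3c3 and 0 in Grn cells, and between targets they were 0 for Atp6v1a against Pik3c3, 3 for Atp6v1a against Grn and 0 for Pik3c3 against Npc1. In Low-input libraries alone the day 13 counts were 3 in Atp6v1a, 0 in Npc1, 0 in Pik3c3, 1 in Grn and 2 in Trem2 cells. Without a filter on low counts they were 1 in Pik3c3 cells of day 13, 0 for Grn between days and 2 for Pik3c3 against Npc1. With the brain marker covariate they were 3 in Grn cells of day 13, 0 for Grn between days and 2 for Rosa26 between days. RLE scaling and DESeq2 moved no count by over 1.5 times. The sole reversal was Tlr8 between Grn and Trem2 cells of day 13, which was 3.08 (adjusted p = 0.0106) without the protocol term and -0.09 with it.

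With the replicate block the counts were 4 in Pik3c3 cells of day 13, 2 for Grn between days and 2 for Pik3c3 against Npc1, and no other count moved by over 1.5 times. The main fit did not pair samples by replicate number, since the labels do not say whether a number stands for the same pool of mice. Same-numbered deviations correlated at -0.095 to 0.325, and no comparison had every pair over 0.1. The samples that correlated best with their own number ran from 1 of 5 in Pik3c3 cells of both days to 4 of 5 in Atp6v1a and Trem2 cells of day 13. These values do not settle whether the numbers pair samples.

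Leaving out 1 library at a time gave 1 to 3 calls in Grn and 2 to 3 in Trem2 cells of day 4. On day 13 it gave 4 to 5 in Atp6v1a, 0 to 1 in Npc1, 1 to 2 in Pik3c3, 4 to 5 in Grn and 3 to 4 in Trem2 cells. Between days it gave 2 to 4 in Atp6v1a, 0 to 1 in Pik3c3, 0 to 2 in Grn, 3 to 3 in Trem2 and 4 to 4 in Rosa26 cells. Between targets it gave 3 to 4 and 4 to 5 for Grn against Trem2 on day 4 and day 13, 3 to 5 for Atp6v1a against Pik3c3, 4 to 6 for Atp6v1a against Grn, 4 to 6 for Atp6v1a against Trem2 and 1 to 1 for Pik3c3 against Npc1. It gave 0 to 0 in each comparison with no call. Depth limits Tlr9.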
